A study of Homo sapiens with 12 samples.

Results

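The 36 genes described here encode aminoacyl-tRNA synthetases, the enzymes that join amino acids to their tRNAs. They are the 20 genes of the cytosolic enzymes and 16 genes of mitochondrial enzymes, whose symbols end in 2. The members were chosen by name, under the symbols in use at the time of the hg19 build (AARS for the gene now called AARS1), from 44147 features in the deposited files. All 36 were listed in each of the 12 libraries, and all 36 were among the 23045 genes that passed the filter on low counts. RNA was sequenced from parent CCRF-CEM cells, an established human T-lymphoblastic leukaemia line that carries SLFN11, and from SLFN11-knockout cells derived from that line. Each line gave 3 libraries labelled DMSO, the solvent control, and 3 labelled prexasertib, which inhibits the kinase CHK1, at 100 nM for 6 h. The design asks how the transcriptome differs under CHK1 inhibition with and without SLFN11. How the knockout was made, whether it is 1 clone, how long the DMSO cells were exposed and whether the libraries of each group are separate cultures are not stated by the labels, so the p-values measure only the spread between these libraries, which may be technical.

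In 12 of 12 records, the attached file is named as a library of the opposite treatment in the same line. Groups follow the record to which each file is attached and are therefore called labelled DMSO and labelled prexasertib. If the library names hold instead, every difference between treatments below changes sign, the interaction included, and the 2 comparisons of knockout with parent cells change places.

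Each synthetase recognises its own amino acid and loads it onto the matching tRNAs, which makes the family the entry point of protein synthesis. Mitochondria use a separate, nuclear-encoded set of enzymes, while GARS and KARS serve both compartments and EPRS joins the glutamyl and prolyl activities in a single protein. Several cytosolic enzymes sit together in the multisynthetase complex on the scaffold proteins AIMP1, AIMP2 and EEF1E1. Many cytosolic synthetase genes are known targets of ATF4, the transcription factor of the integrated stress response, and uncharged tRNA activates EIF2AK4 (GCN2), a kinase that raises ATF4 protein. SLFN11 acts on stressed replication forks and has also been described to bind and cleave tRNA.

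Exonic reads summed to between 47887791 and 77548202 per library, and intronic reads made up 23.9% to 30.3% of the reads in genes. Replicate 1 of the parent libraries labelled prexasertib had the highest intronic share, and its counts differed from those of its replicates by a chi-square per degree of freedom of 33.5 and 29.1, against 4.29 to 13.4 within the other pairs. No 2 libraries agreed within sampling noise. Exact two-sided permutation tests of the intronic share between groups (n = 3 each) gave p = 0.1 to 0.5, where 0.1 is the smallest p that this design allows. SLFN11 mRNA stood at 100.4, 91.2 and 95.2 CPM (exonic counts scaled to library size with TMM) in parent libraries labelled DMSO and 65.9, 66.6 and 69.1 CPM in the knockout ones. Under the label prexasertib it was 117, 119 and 117 CPM in parent and 85.0, 90.7 and 89.4 CPM in knockout libraries. The knockout was lower in each library (-0.51 ± 0.05 and -0.41 ± 0.05 log2, SE), with transcript still present, and reads over the edited site were not analysed here. Summed levels of the 10 T-lymphoblast markers were 627 to 944 TPM over the 4 group means, highest in knockout cells, while the 5 myeloid markers stayed near 0 (0.271 to 0.327 TPM). B-cell markers summed to 16.5 to 33.3 TPM, nearly all from CD79A and CD79B, with PAX5 near 0. Adherent-cell markers summed to 0.7003 and 0.696 TPM in parent cells and 4.91 and 5.23 TPM in knockout cells, nearly all EPCAM. In bulk RNA, fewer cells of a type and less RNA per cell cannot be told apart, and the part of these markers in the differences between lines was not tested.

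Levels of the synthetase genes are given first, in TPM, the length-scaled unit in which genes can be compared. FARSA, a subunit of the cytosolic phenylalanyl enzyme, had the highest mean of the family, 72.4 TPM over the 12 libraries. It stood at 59.9, 65.0 and 58.6 TPM in the parent libraries labelled DMSO and 70.5, 71.9 and 74.6 TPM in those labelled prexasertib. Knockout libraries gave 71.2, 78.1 and 77.4 TPM (labelled DMSO) and 80.8, 83.8 and 77.2 TPM (labelled prexasertib). Knockout libraries were thus high and the parent libraries labelled DMSO low on this scale, with no overlap between those groups. IARS, NARS and KARS, which load isoleucine, asparagine and lysine, followed at means of 56.0, 53.4 and 51.8 TPM, and their ranges over libraries overlapped.

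For IARS, parent libraries held 45.2, 39.5 and 41.2 TPM (labelled DMSO) and 54.9, 60.9 and 57.4 TPM (labelled prexasertib), and knockout libraries 57.6, 59.9 and 57.8 and 64.5, 65.0 and 68.4 TPM in the same order of labels. The parent libraries labelled DMSO were the lowest and did not overlap with any other group. NARS stood at 48.4, 43.0 and 45.0 TPM and 48.9, 57.5 and 54.0 TPM in parent cells, and at 56.7, 55.8 and 56.3 TPM and 56.5, 57.6 and 60.8 TPM in knockout cells. KARS stood at 45.0, 42.6 and 44.0 TPM and 45.3, 51.5 and 49.5 TPM in parent cells, and at 55.7, 56.7 and 56.2 TPM and 57.3, 58.2 and 59.5 TPM in knockout cells. Both were lowest in the parent libraries labelled DMSO. The highest of these lay just below the lowest parent library labelled prexasertib and further below each knockout library. At the other end, HARS (histidine) and CARS (cysteine) had means of 9.38 and 6.23 TPM and lay among the mitochondrial members.

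IARS2, which loads isoleucine in mitochondria, was the most abundant mitochondrial member at a mean of 31.6 TPM, and no library of another mitochondrial member exceeded 16.7 TPM. It stood at 23.3, 19.9 and 21.1 TPM and 29.5, 32.5 and 30.3 TPM in parent libraries (labelled DMSO, then labelled prexasertib) and at 37.0, 37.5 and 36.1 TPM and 36.1, 36.4 and 38.9 TPM in knockout libraries. The parent libraries labelled DMSO were low and the groups of the 2 lines did not overlap. LARS2 (leucine) had 10.7, 9.64 and 9.82 TPM and 12.201, 12.6 and 12.8 TPM in parent libraries and 13.7, 14.5 and 13.9 TPM and 14.4, 16.7 and 15.15 TPM in knockout libraries. NARS2 (asparagine) had 12.1, 10.7 and 9.94 TPM and 11.8, 12.6 and 11.1 TPM, then 12.8, 13.03 and 12.7 TPM and 13.9, 14.1 and 15.17 TPM. Both were lowest in the parent libraries labelled DMSO, and for NARS2 these overlapped with the parent libraries labelled prexasertib. MARS2, the methionyl enzyme, had 10.6, 10.0 and 9.08 TPM and 11.98, 11.9 and 12.1 TPM in parent libraries and 12.4, 12.8 and 12.4 TPM and 13.1, 13.4 and 13.5 TPM in knockout libraries, but none of its exonic reads lie outside another gene in the files. The remaining mitochondrial members had means from 3.41 TPM (PARS2, proline) to 11.9 TPM (YARS2, tyrosine).

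**Figure D1:**
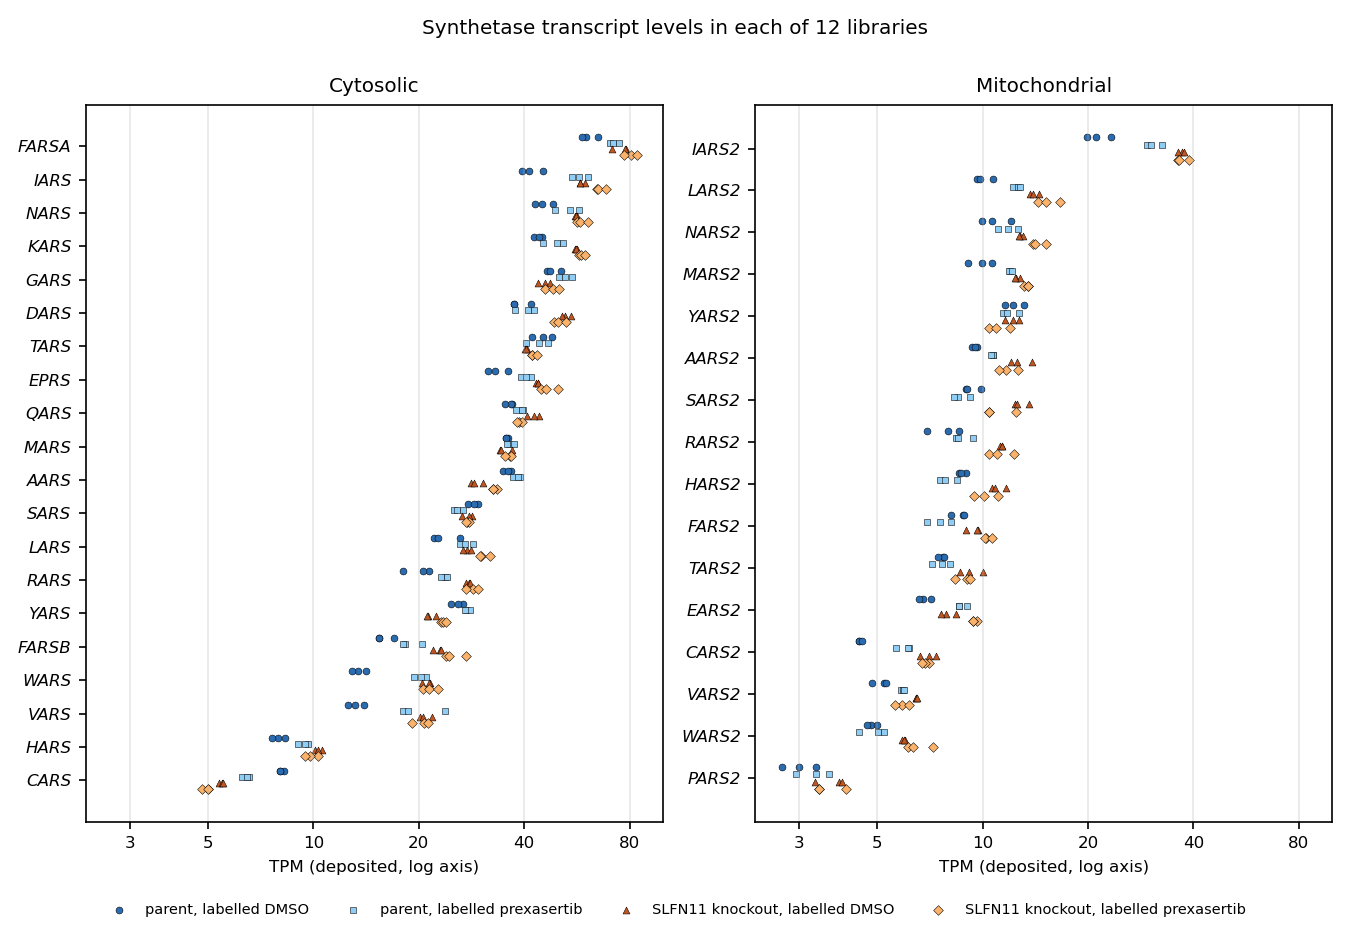
Deposited TPM (log axis) of the 20 cytosolic and 16 mitochondrial synthetase genes in each of 12 libraries, 1 point per library, ordered by mean level. FARSA (72.4 TPM) and IARS2 (31.6 TPM) lead their compartments. On this scale the median of all genes is 0.15 (log2) higher in knockout than parent libraries labelled DMSO, so a shift to the right of that size is common to all genes.

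Summed TPM of the 20 cytosolic genes was 623 ± 20.9 (SD, n = 3) in parent libraries labelled DMSO and 702 ± 19.3 (SD, n = 3) in those labelled prexasertib. In knockout libraries it was 721 ± 15.8 (SD, n = 3) and 751 ± 13.1 (SD, n = 3). The 16 mitochondrial genes summed to 140.5 ± 5.26 and 159 ± 3.59 TPM in parent libraries and to 186 ± 5.45 and 187 ± 5.79 TPM in knockout libraries (SD, n = 3 each). A shift of the TPM scale that all genes share enters these sums and cancels in the ratio of the cytosolic to the mitochondrial sum. That ratio was 4.44 ± 0.0179 and 4.41 ± 0.0218 in parent libraries and 3.87 ± 0.0454 and 4.01 ± 0.0767 in knockout libraries (SD, n = 3 each). The ratio was lower in each of the 6 knockout libraries than in each of the 6 parent libraries. The mitochondrial genes thus held a larger share of summed synthetase TPM in the knockout line. No test was run on these sums.

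Because many cytosolic synthetase genes are ATF4 targets, the 250 bases before the start of each member were searched on both strands for TGATGNAA, the C/EBP-ATF response element that ATF4 binds, and for TGACGTCA (CRE) and TGANTCA (AP-1). RefSeq promoters of GRCh38.p14 were found for 30 of 36 members, and some have 2, each with its own start. A member counts as matching if any of its promoters does, whereas the shares of all promoters count each promoter singly. TGATGNAA occurred in 3 of 16 cytosolic members with a promoter, GARS and IARS among them, and 1 of 14 mitochondrial members (YARS2), against 3.14% of all 35116 promoters and 2.35% of the 22199 promoters of protein-coding genes. TGACGTCA and TGANTCA occurred in 0 of 30, against 1.65% and 6.57% of all promoters. The match begins 33 bases before the start in GARS, 13 in IARS and 197 in YARS2. These 3 are shown as examples, and not as every match, so that the letters and place of the match can be compared. They are on the gene's own strand, 5′ to 3′, with the match in capitals. GARS and YARS2 were among the genes lower in knockout cells below, on exonic reads with TMM scaling, and IARS was not. Under the label DMSO, GARS and YARS2 were not called lower on TPM, and IARS was lower on intronic reads. For GARS and IARS the match lies on the opposite strand, so the capitals are its reverse complement. The GARS stretch is chr7:30594834-30594863 (plus strand), that of IARS chr9:92293698-92293727 (minus strand) and that of YARS2 chr12:32756076-32756105 (minus strand), and the GARS and IARS matches lie in annotated exons. The last line is the region before SARS, chr1:109213643-109213892 (plus strand), which has none of the 3 motifs and which no annotated exon covers. SARS was also lower in knockout cells under the label DMSO with TMM scaling, and was not called on TPM. The 4 sequences are from RefSeq, build GRCh38.p14.
GARS: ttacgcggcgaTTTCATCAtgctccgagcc
IARS: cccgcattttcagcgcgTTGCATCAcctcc
YARS2: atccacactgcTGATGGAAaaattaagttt
SARS: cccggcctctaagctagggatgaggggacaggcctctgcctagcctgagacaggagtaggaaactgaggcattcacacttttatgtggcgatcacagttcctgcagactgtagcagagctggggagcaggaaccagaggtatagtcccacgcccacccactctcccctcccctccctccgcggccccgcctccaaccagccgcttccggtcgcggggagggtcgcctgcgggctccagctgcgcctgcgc
A match describes these letters only.

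The first comparison asks how the knockout line differs from the parent line, here in the libraries labelled DMSO. Of the 20 cytosolic genes, 7 were lower and 6 higher in knockout cells (35.0% and 30%), where 20.4% of all genes tested were called lower and 19.6% higher. Of the 16 mitochondrial genes, 1 was lower and 4 were higher (6.25% and 25.0%). The 7 lower cytosolic genes were CARS, AARS, YARS, TARS, GARS, SARS and MARS, with log2 fold changes from -0.85 to -0.30. The 6 higher ones were VARS, WARS, FARSB, IARS, RARS and DARS, from 0.37 down to 0.16. The median log2 fold change was 0.03 for the cytosolic and 0.06 for the mitochondrial genes, against -0.01 for all genes tested. A gene was called at an adjusted p of at most 0.05 (edgeR quasi-likelihood F test, adjusted over all genes by Benjamini and Hochberg). Values by library below are in CPM, and the error after ± is a standard error. Groups without overlap were common: of all 23045 genes, 6134 were higher and 6213 lower without overlap in this comparison. Under the label prexasertib the numbers between lines were 4478 and 4295. Between labels they were 4970 and 5017 in parent cells and 3900 and 4003 in knockout cells.

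CARS, the cysteinyl enzyme (chr11:3022152-3078843, hg19), moved furthest. Its level was 75.5, 79.4 and 79.6 CPM in the parent libraries labelled DMSO and 43.4, 42.4 and 44.8 CPM in the knockout libraries with that label. All 3 knockout libraries lay well below all 3 parent libraries, a log2 fold change of -0.85 ± 0.05 (SE), or 1.80-fold lower, with an edgeR adjusted p of 1.41e-12. AARS, the alanyl enzyme (chr16:70286198-70323446), had 143, 163 and 159.9 CPM in parent and 101, 106 and 104 CPM in knockout libraries. The groups did not overlap, and the log2 fold change was -0.58 ± 0.05 (SE; edgeR adjusted p = 1.63e-09). YARS, the tyrosyl enzyme (chr1:33240840-33283754), had 200.3, 199.9 and 209 CPM in parent and 139.6, 142 and 139 CPM in knockout libraries. It was lower in all 3 knockout libraries (-0.53 ± 0.05 log2, edgeR adjusted p = 7.02e-10). TARS, for threonine, followed with 233, 221 and 238 CPM against 172, 167 and 174 CPM, again without overlap (-0.43 ± 0.06, edgeR adjusted p = 6.71e-07). SARS, for serine, had 104, 104 and 109 CPM against 81.9, 83.7 and 85.9 CPM, also without overlap (-0.33 ± 0.05, edgeR adjusted p = 5.51e-06).

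Among the higher genes, VARS, the valyl enzyme (chr6:31745295-31763730), had 69.8, 83.6 and 78.8 CPM in parent and 98.0, 102 and 100.5 CPM in knockout libraries. The parent libraries were scattered but all lower (0.37 ± 0.08 log2, edgeR adjusted p = 0.00125). WARS, the tryptophanyl enzyme (chr14:100800125-100843142), had 71.2, 73.1 and 70.2 CPM against 90.1, 91.7 and 94.8 CPM and was higher in all 3 knockout libraries (0.37 ± 0.05 log2, edgeR adjusted p = 2.68e-06). Only 29.5% of WARS exonic reads lie outside other genes in the files, and with those reads alone it was still called higher. IARS2 (chr1:220267444-220321380) led the mitochondrial genes with 88.5, 81.5 and 86.7 CPM in parent and 124, 120.2 and 121 CPM in knockout libraries. The 3 knockout libraries were high, at 1.42-fold the parent level (0.51 ± 0.05 log2, edgeR adjusted p = 1.55e-08). CARS2, the mitochondrial cysteinyl enzyme, had 36.5, 39.5 and 40.2 CPM against 50.7, 51.1 and 48.0 CPM and did not overlap either (0.37 ± 0.06 log2, edgeR adjusted p = 8.51e-06). The pair of cysteinyl genes thus differed in opposite directions, CARS lower and CARS2 higher. RARS2 and LARS2 were also higher (log2 0.26 and 0.20), and YARS2 was the lower mitochondrial gene (-0.30). FARSA, NARS and KARS, 3 of the 4 most abundant cytosolic members, were not called (log2 0.02, 0.03 and 0.08), nor were NARS2 and MARS2 (-0.04 and 0.06).

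The counts depended on scaling. On deposited TPM, where the median of all genes is 0.15 (log2) higher in the knockout and 83.4% of all calls are higher (49.0% with TMM scaling), 13 cytosolic and 13 mitochondrial members were called higher and 4 and 0 lower. Of all 23045 genes tested, 9162 were called higher and 1822 lower on TPM. On that scale CARS, AARS, YARS and TARS were still called lower, and GARS (-0.08), SARS (-0.05), MARS (-0.02) and YARS2 (-0.02) were not. Scaling by library size alone gave 62.4% of all calls higher and 8 mitochondrial members higher, beside 5978 of 23045 genes. With intronic reads added, YARS2 stood at 0.02 and IARS at 0.08, neither called. YARS2 overlaps DNM1L in the files, and only 6.45% of its intronic reads lie outside other genes. Counting only those intronic reads, YARS2 was at -0.15 and not called. Leaving out single libraries, named here by label, line and replicate, ended some calls. The DARS call ended without DMSO parent 2 or 3 or DMSO knockout 1, 2 or 3 (0.13 to 0.17), and that of RARS without DMSO parent 2 (0.12). The RARS2 call ended without DMSO parent 2 (0.18). Without replicate 1 of the parent libraries labelled prexasertib, 2 mitochondrial members were called lower, beside 5804 of 23625 genes.

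**Figure D2:**
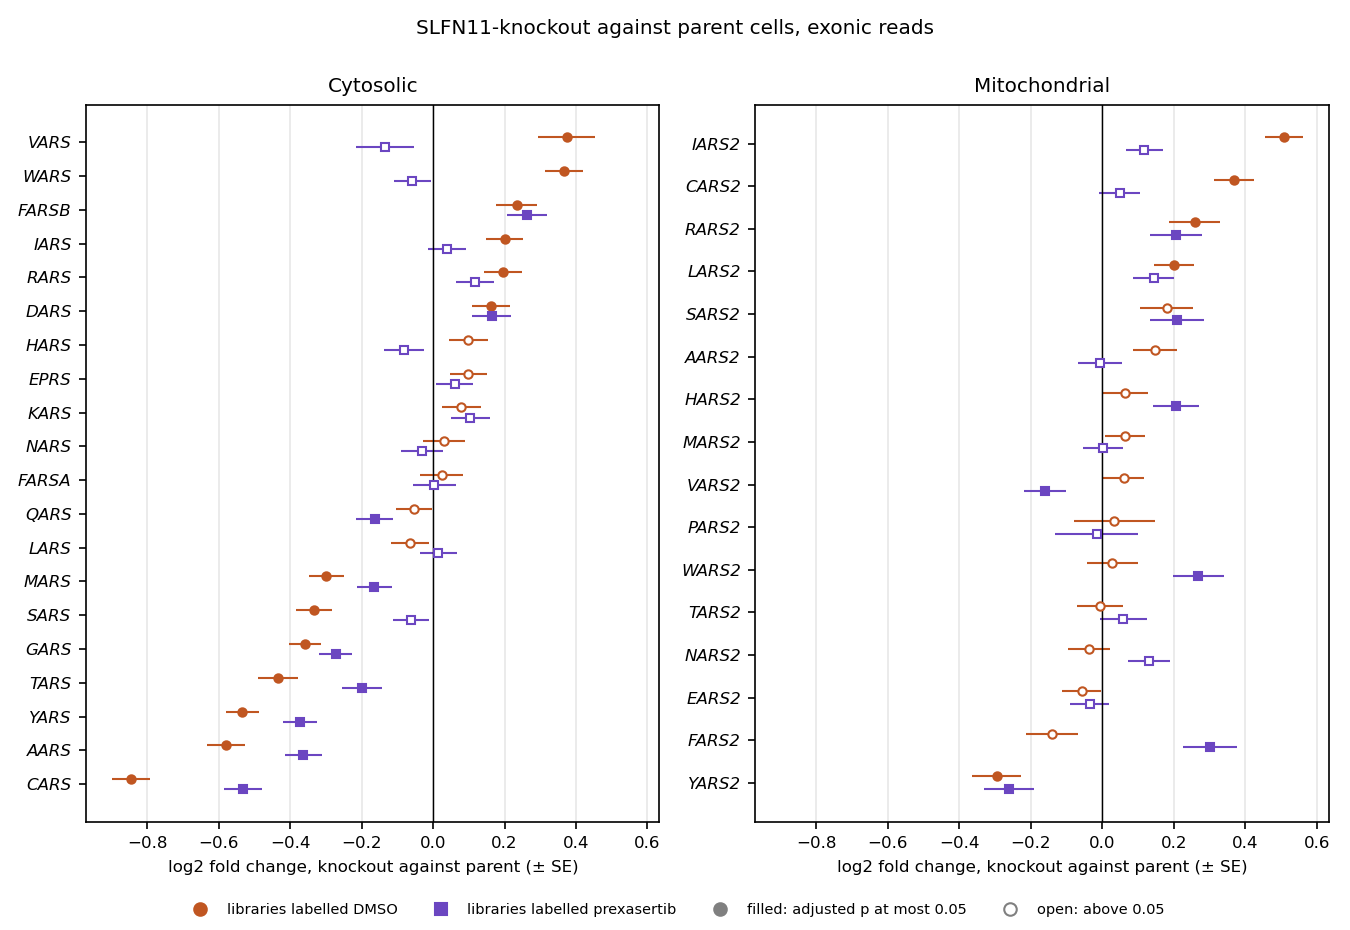
Log2 fold change of exonic reads, knockout against parent cells, for the 20 cytosolic and 16 mitochondrial genes, with SE bars, in the libraries labelled DMSO (circles) and prexasertib (squares). Filled symbols mark an edgeR adjusted p of at most 0.05. CARS, AARS and YARS are lowest under both labels, and IARS2, VARS, WARS and CARS2 are highest under the label DMSO (0.37 to 0.51). On the TPM scale GARS, SARS, MARS and YARS2 are not called under the label DMSO.

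In the libraries labelled prexasertib, the knockout line again had lower CARS, AARS and YARS. In all, 7 cytosolic members were lower and 2 higher (35.0% and 10%; 13.5% and 14.5% of all genes tested), and 2 mitochondrial members were lower and 5 higher (12.5% and 31.2%). CARS had 52.6, 57.4 and 58.3 CPM in parent and 39.8, 38.0 and 38.6 CPM in knockout libraries. Its knockout values were all lower (-0.53 ± 0.05 log2, edgeR adjusted p = 2.17e-08). AARS had 147, 146 and 155 CPM against 119.9, 115 and 113 CPM without overlap (-0.36 ± 0.05 log2, edgeR adjusted p = 8.15e-06), and YARS 188, 200.1 and 199.9 CPM against 151, 151 and 151 CPM (-0.37 ± 0.05 log2, edgeR adjusted p = 8.47e-07). CARS and AARS were called lower under 22 of 22 alternatives tried in this comparison, and YARS under 22 of 22. GARS, TARS, MARS and QARS, the glutaminyl enzyme, were lower as well (log2 -0.27, -0.20, -0.16 and -0.16), and FARSB and DARS higher (0.26 and 0.16).

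VARS, WARS and SARS, which differed between the lines under the label DMSO, were not called here. VARS had 122, 95.8 and 102 CPM in parent and 100.1, 101 and 89.4 CPM in knockout libraries, with overlap (-0.13 ± 0.08 log2, edgeR adjusted p = 0.245). WARS had 89.8, 101 and 100.4 CPM against 90.1, 92.8 and 96.4 CPM, with overlap (-0.06 ± 0.05 log2, edgeR adjusted p = 0.453), and SARS 81.5, 89.4 and 88.4 CPM against 84.0, 83.9 and 80.4 CPM, also with overlap (-0.06 ± 0.05 log2, edgeR adjusted p = 0.396). Parent and knockout libraries covered much the same range for these 3 genes. Among mitochondrial genes, FARS2, for phenylalanine, had 13.7, 15.5 and 17.2 CPM in parent and 19.2, 18.8 and 19.2 CPM in knockout libraries, which were all higher (0.30 ± 0.07 log2, edgeR adjusted p = 0.00319). With intronic reads added, FARS2 turned to -0.11 and was not called. WARS2, SARS2, RARS2 and HARS2 were higher (log2 0.27, 0.21, 0.21 and 0.21), YARS2 and VARS2 lower (-0.26 and -0.16). IARS2 had 103, 118 and 113 CPM against 119, 119 and 124 CPM and was not called (0.12 ± 0.05 log2, edgeR adjusted p = 0.1), although its groups did not overlap. With intronic reads added, RARS2 stood at -0.00161 and YARS2 at 0.02, but only 6.45% of YARS2 intronic reads lie outside other genes. On TPM, 82.8% of all calls were higher (51.8% with TMM scaling), with 7 cytosolic members higher and 3 lower (CARS, AARS and YARS) and 11 mitochondrial members higher and 0 lower. Of all 23045 genes, 6339 were called higher and 1314 lower on that scale.

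Most other calls in this comparison ended when 1 library was left out, in several cases with log2 values little changed. The DARS call ended without prexasertib parent 1 (0.10) or prexasertib knockout 1 (0.18) or 3 (0.14), and that of TARS without prexasertib parent 2 (-0.14) or 3 (-0.17). The QARS call ended without prexasertib parent 2 (-0.15) or 3 (-0.13) or prexasertib knockout 1 (-0.17) or 3 (-0.14), and that of MARS without prexasertib parent 2 (-0.14) or 3 (-0.15) or prexasertib knockout 3 (-0.14). The YARS2 call ended without prexasertib parent 3 (-0.19) or prexasertib knockout 1 (-0.22), and that of SARS2 without DMSO parent 3, prexasertib parent 1 or 2, DMSO knockout 2 or 3 or prexasertib knockout 2 (0.12 to 0.21). The RARS2 call ended without prexasertib parent 1 (0.15) or 3 (0.21) or prexasertib knockout 2 (0.22) or 3 (0.15), and that of HARS2 without prexasertib parent 1 (0.15) or prexasertib knockout 3 (0.16). The VARS2 call ended without DMSO parent 1, 2 or 3, prexasertib parent 2 or 3, DMSO knockout 1 or 3 or prexasertib knockout 1 or 3 (-0.17 to -0.12), and that of WARS2 without prexasertib knockout 3 (0.21). The mitochondrial count was 2 higher without parent replicate 1 or knockout replicate 3 labelled prexasertib, 3 without knockout replicate 2, and 8 without replicate 1 of the parent libraries labelled DMSO. Genes called higher in these fits numbered 3337 of 23625, 2667 of 23831, 2875 of 23799 and 3801 of 23741, in that order. The mitochondrial count was 0 lower without parent replicate 3 or knockout replicate 1 labelled prexasertib. The cytosolic count was 4 lower without parent replicate 2 or 3 labelled prexasertib, and 1 higher without parent replicate 1 or knockout replicate 1 or 3. CARS, AARS, YARS and FARSB were called without any 1 library, as was GARS (-0.27).

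Within parent cells, the comparison of the 2 labels asks what CHK1 inhibition changed with SLFN11 present. Of the cytosolic genes, 4 were higher and 3 lower in the libraries labelled prexasertib (20% and 15%), and of the mitochondrial genes 4 and 4 (25.0% and 25.0%), where 18.2% of all genes tested were called higher and 18.2% lower. The cytosolic shares are near those of all genes, so no shift of the family as a whole is read from them. VARS, WARS, IARS and EPRS were higher, and CARS, SARS and TARS lower. From the values by library given above, CARS went from 75.5 to 79.6 CPM under the label DMSO to 52.6 to 58.3 CPM under the label prexasertib, without overlap (-0.48 ± 0.05 log2, edgeR adjusted p = 5.06e-08). SARS was lower likewise, without overlap (-0.29 ± 0.05 log2, edgeR adjusted p = 4.59e-05). TARS had 182, 218 and 211 CPM under the label prexasertib, below its values under the label DMSO (-0.18 ± 0.06 log2, edgeR adjusted p = 0.0131). VARS was higher in all 3 libraries labelled prexasertib, of which replicate 1 was the highest (0.46 ± 0.08 log2, edgeR adjusted p = 2.31e-04). WARS (0.44 ± 0.05 log2, edgeR adjusted p = 1.98e-07) and IARS (0.32 ± 0.05 log2, edgeR adjusted p = 1.99e-05) were higher without overlap. EPRS, which loads glutamate and proline, was called at 0.13, and under 7 of 22 alternatives.

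IARS2 led the higher mitochondrial genes, with all 3 libraries labelled prexasertib above all 3 labelled DMSO (0.38 ± 0.05 log2, edgeR adjusted p = 1.91e-06). CARS2 had 36.5, 39.5 and 40.2 CPM under the label DMSO and 46.5, 44.5 and 49.6 CPM under the label prexasertib, a rise without overlap (0.28 ± 0.06 log2, edgeR adjusted p = 3.88e-04). EARS2, for glutamate, and LARS2 were also higher (0.22 and 0.18 log2). FARS2 had 18.9, 18.8 and 20.6 CPM against 13.7, 15.5 and 17.2 CPM and was lower without overlap (-0.33 ± 0.07 log2, edgeR adjusted p = 9.00e-04), but with intronic reads added it was called higher (0.29). HARS2, SARS2 and YARS2 were lower (-0.28, -0.25 and -0.18 log2), the last 2 with overlapping groups. HARS2 overlaps HARS in the files, only 9.09% of SARS2 exonic reads lie outside other genes, and with intronic reads added YARS2 stood at 0.00895. Of the YARS2 intronic reads, only 6.45% lie outside other genes.

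Without replicate 1 of the parent libraries labelled prexasertib, the library that stands apart, 7 cytosolic members were called higher, beside 4030 of 23625 genes. Without replicate 1 of the parent libraries labelled DMSO 5 cytosolic members were called lower, beside 4327 of 23741 genes. Without replicate 2 of the parent libraries labelled prexasertib 2 mitochondrial members were called lower, beside 4001 of 23758 genes. The TARS call ended without DMSO parent 3 (-0.16), and that of EPRS without DMSO parent 1, 2 or 3, prexasertib parent 2 or 3, DMSO knockout 1, 2 or 3 or prexasertib knockout 1, 2 or 3 (0.07 to 0.14). The LARS2 call ended without DMSO parent 1, 2 or 3, prexasertib parent 3 or DMSO knockout 1 (0.12 to 0.17), and that of YARS2 without DMSO parent 3 (-0.17), prexasertib parent 1 (-0.16) or 2 (-0.17) or DMSO knockout 3 (-0.19). The SARS2 call ended without prexasertib parent 2 (-0.22). Scaling by library size alone, with a median of all genes at 0.11 and 62.2% of all calls higher (49.95% with TMM scaling), gave 10 cytosolic members higher, beside 5624 of 23045 genes. TPM gave 71.9% of all calls higher, with 12 cytosolic and 7 mitochondrial members higher and TARS not called (-0.04). Of all 23045 genes, 6365 were called higher and 2487 lower on TPM. CARS, SARS, VARS, WARS, IARS, IARS2, CARS2 and EARS2 were called under each of these alternatives.

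In knockout cells the same comparison gave fewer calls. Among cytosolic genes, AARS and IARS were higher and CARS lower (10% and 5%; 6.11% and 6.83% of all genes tested), and among mitochondrial genes EARS2 alone was higher (6.25%) with 0 lower. EARS2 had 34.1, 35.0 and 33.2 CPM under the label DMSO and 41.6, 39.9 and 39.0 CPM under the label prexasertib, all 3 higher (0.24 ± 0.05 log2, edgeR adjusted p = 0.00374), beside 0.22 ± 0.05 in parent cells. This call held under 22 of 22 alternatives. AARS (0.16 ± 0.05 log2), IARS (0.16 ± 0.05 log2) and CARS (-0.17 ± 0.05 log2) had edgeR adjusted p-values of 0.0474, 0.044 and 0.0409. These 3 calls were made under 13 of 22, 11 of 22 and 13 of 22 alternatives. The IARS call ended without DMSO parent 3, prexasertib parent 3, DMSO knockout 1, 2 or 3 or prexasertib knockout 1, 2 or 3 (0.15 to 0.17), and that of AARS without DMSO parent 3, prexasertib parent 2, DMSO knockout 1, 2 or 3 or prexasertib knockout 1 or 2 (0.14 to 0.17). The CARS call ended without DMSO parent 3, DMSO knockout 1, 2 or 3 or prexasertib knockout 1, 2 or 3 (-0.18 to -0.14). Leaving out replicate 1 of the parent libraries labelled prexasertib, which enters this comparison only through the shared estimate of spread and the scaling, gave 6 cytosolic genes higher and 2 lower, and 2 mitochondrial genes higher and 2 lower. Calls rose over all genes too, to 2267 higher and 2276 lower of 23625, beside 1407 and 1575 of 23045 in the main fit.

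**Figure D3:**
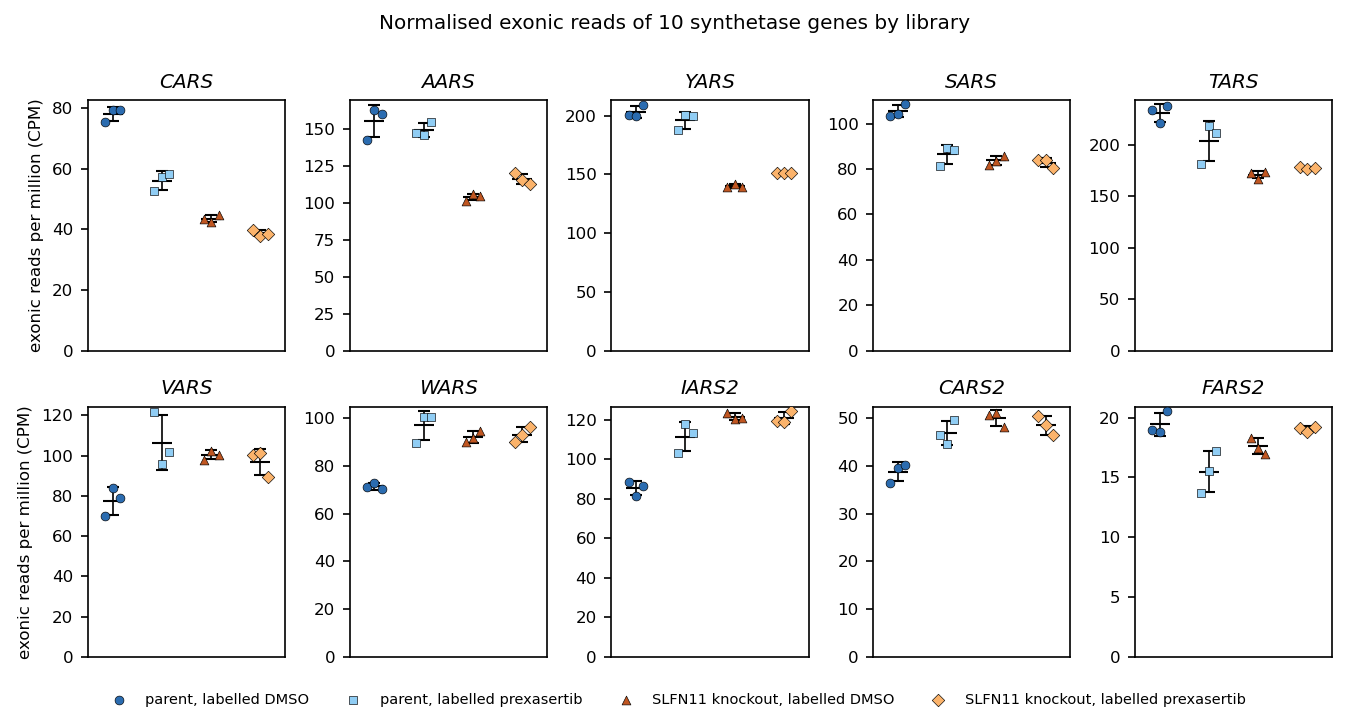
Exonic CPM (TMM-scaled, axes from 0) of 10 synthetase genes in each library, with mean and SD (n = 3 per group). CARS is highest in the parent libraries labelled DMSO (75.5 to 79.6 CPM) and lowest in the knockout libraries, while VARS, WARS, IARS2 and CARS2 are lowest in the parent libraries labelled DMSO.

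Whether the difference between labels itself differs between the lines was tested as an interaction, taken as parent minus knockout. Of the cytosolic members, 2 had a positive and 4 a negative interaction (10% and 20%), and of the mitochondrial members 2 and 1 (12.5% and 6.25%), where 7.32% and 9.53% of all genes tested were called. VARS (0.51 ± 0.11 log2, edgeR adjusted p = 0.00491) and WARS (0.43 ± 0.07 log2, edgeR adjusted p = 1.74e-04) were positive. VARS differed by 0.46 in parent and -0.05 in knockout cells, and WARS by 0.44 and 0.01. IARS2 (0.39 ± 0.07 log2, edgeR adjusted p = 4.73e-04) and CARS2 (0.32 ± 0.08 log2, edgeR adjusted p = 0.00632) were the positive mitochondrial genes, with -0.01 and -0.04 in knockout cells. CARS2 had 50.4, 48.5 and 46.4 CPM in the knockout libraries labelled prexasertib, which overlapped with the 50.7, 51.1 and 48.0 CPM of those labelled DMSO. These 4 genes, for valine, tryptophan, isoleucine and cysteine, were higher under the label prexasertib in parent cells and not called in knockout cells.

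On the negative side stood CARS (-0.31 ± 0.08 log2, edgeR adjusted p = 0.00415), SARS (-0.27 ± 0.07 log2, edgeR adjusted p = 0.00843), TARS (-0.23 ± 0.08 log2, edgeR adjusted p = 0.0434) and AARS (-0.22 ± 0.07 log2, edgeR adjusted p = 0.0476). CARS, SARS and TARS were lower under the label prexasertib in parent cells, while in knockout cells SARS and TARS were not called (-0.02 and 0.05) and CARS was lower by less (-0.17). TARS had 172, 167 and 174 CPM in the knockout libraries labelled DMSO and 178, 176 and 178 CPM in those labelled prexasertib, a narrow range beside the parent values. FARS2 was the negative mitochondrial gene (-0.44 ± 0.10 log2, edgeR adjusted p = 0.00367), at -0.33 in parent and 0.11 in knockout cells, and turned to 0.22 with intronic reads added. Its knockout libraries held 18.3, 17.5 and 17.0 CPM (labelled DMSO) and 19.2, 18.8 and 19.2 CPM (labelled prexasertib). The TARS call ended without DMSO parent 3 (-0.21), DMSO knockout 2 (-0.24) or 3 (-0.25) or prexasertib knockout 1 (-0.23), and that of AARS without DMSO parent 3 (-0.20), prexasertib parent 2 (-0.20), DMSO knockout 3 (-0.22) or prexasertib knockout 1 (-0.19). CARS and SARS were called negative without any 1 library. Without replicate 1 of the parent libraries labelled prexasertib, 4 cytosolic members were positive and 2 mitochondrial members negative, and 2 mitochondrial members were also negative without replicate 1 of those labelled DMSO. Of 23625 genes, 2137 were positive and 2905 negative in the first of these fits, and 2301 of 23741 were negative in the second. On TPM, where 72.3% of all calls were positive (43.4% with TMM scaling), 5 cytosolic and 4 mitochondrial members were positive and 0 cytosolic members negative (CARS -0.17, SARS -0.14). Of all 23045 genes, 2878 were positive and 1104 negative on TPM. With library size alone 59.8% of all calls were positive, and 4 cytosolic members were positive and 2 negative, beside 2636 and 1772 of 23045 genes.

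**Figure D4:**
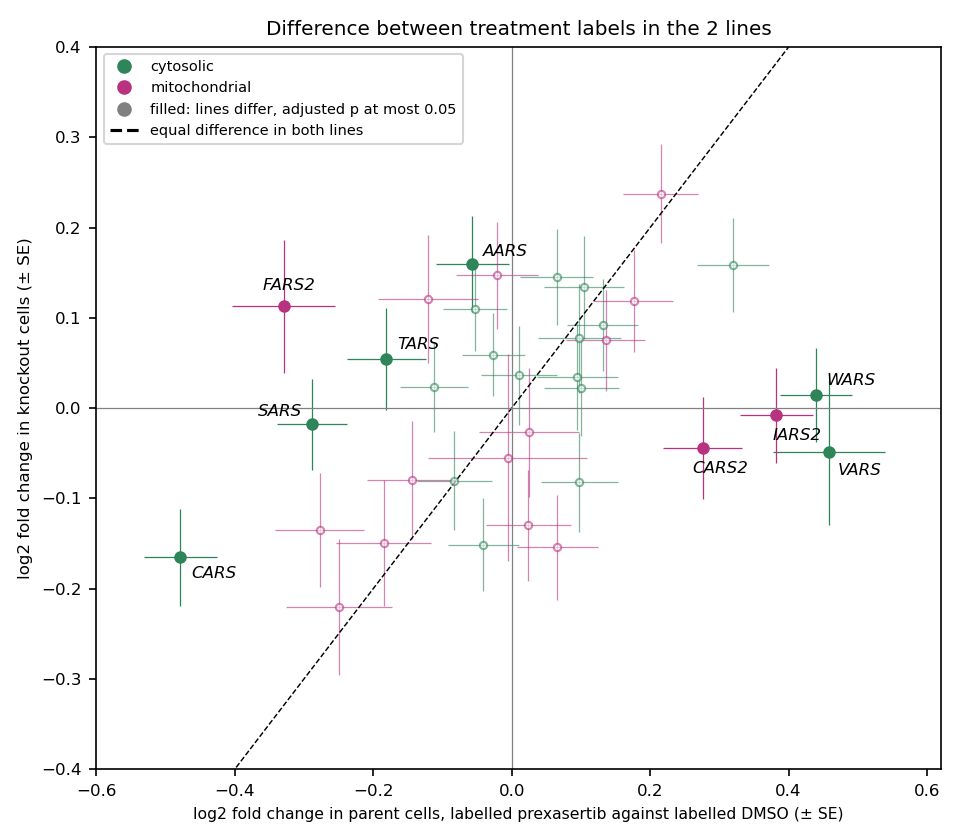
Log2 fold change between labels (prexasertib against DMSO) in parent cells (x) and knockout cells (y) for all 36 genes, with SE bars. Filled, named points have an interaction with an edgeR adjusted p of at most 0.05. VARS, WARS, IARS2 and CARS2 lie to the right near 0 on the knockout axis, and CARS, SARS, TARS and FARS2 to the left. On the TPM scale 0 cytosolic members are called negative.

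Grouped by role, the 12 free cytosolic enzymes had 6 lower and 3 higher calls between lines under the label DMSO (50% and 25.0%, median log2 -0.15), where 20.4% of all genes tested were lower and 19.6% higher. The 8 members of the multisynthetase complex had 1 lower (MARS) and 3 higher (IARS, RARS and DARS), or 12.5% and 37.5% (median 0.09). Under the label prexasertib the free enzymes had 5 lower and 1 higher (41.7% and 8.33%, median -0.11) and the complex members 2 lower and 1 higher (25.0% and 12.5%, median 0.05), where 13.5% of all genes were lower and 14.5% higher. In the interaction 6 of 12 free enzymes were called, 2 positive and 4 negative (16.7% and 33.3%), and 0 of 8 complex members, where 7.32% of all genes were positive and 9.53% negative. The 13 cytosolic genes that are described as ATF4 targets had 7 lower calls under the label DMSO and 3 higher (IARS, VARS and WARS), or 53.8% and 23.1%, beside the same 20.4% and 19.6% of all genes, so the higher share lies near that of all genes. The other 7 cytosolic genes had 0 lower and 3 higher (DARS, FARSB and RARS), or 42.9% higher. Medians were -0.30 and 0.10, against -0.01 for all genes. Under the label prexasertib the ATF4-described genes had 6 lower and 0 higher (46.2% lower, median -0.13) and the others 1 lower and 2 higher (14.3% and 28.6%, median 0.10), beside 13.5% and 14.5% of all genes. With so few genes a group, 1 call moves these shares by several percentage points. These 2 comparisons use different libraries of each line. All of these shares hold for TMM scaling. On TPM, GARS, SARS and MARS were not called lower under the label DMSO, and more cytosolic members were called higher. Under the label prexasertib only CARS, AARS and YARS were called lower on TPM, and no cytosolic interaction was negative.

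By catalytic fold, the 18 class I enzymes had 7 higher and 2 lower calls between labels in parent cells (38.9% and 11.1%, median log2 0.08), and the 17 class II enzymes 0 higher and 5 lower (29.4% lower, median -0.03). Of all genes tested, 18.2% were higher and 18.2% lower, with a median of 0.04. EPRS, which has a domain of each class, was counted in neither. The class shares hold for TMM scaling. On TPM and with library size alone, more cytosolic members were called higher, class II members among them. Of the lower class II genes, TARS was not called on TPM, and FARS2 was called higher with intronic reads added. Only 9.09% of SARS2 exonic reads lie outside other genes. The interaction gave 4 positive (VARS, WARS, IARS2 and CARS2) and 1 negative (CARS) for class I, and 0 positive and 4 negative (AARS, SARS, TARS and FARS2) for class II. These are 22.2% and 5.56% of class I and 23.5% negative of class II, beside 7.32% positive and 9.53% negative of all genes. Both comparisons use all 6 parent libraries. On TPM no cytosolic member had a negative interaction, and with intronic reads added that of FARS2 turned positive. The AARS and TARS interactions were no longer called when any of several single libraries was left out. GARS and KARS, the genes that serve both compartments, had different calls. GARS was lower in knockout cells under both labels (-0.36 and -0.27 log2), and KARS was not called under either (0.08 and 0.10). The difference between any of these groups was not tested.

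Genes around the synthetases were followed in a list of charging accessory genes: complex scaffolds, selenocysteine and mitochondrial amidation enzymes, editing enzymes and the tRNA exporter XPOT, among others. Of the 14 tested, 3 were higher and 7 lower between labels in parent cells (21.4% and 50%, beside 18.2% and 18.2% of all genes), and 1 and 2 in knockout cells (7.14% and 14.3%, beside 6.11% and 6.83%). Between lines under the label DMSO 4 were higher and 3 lower (28.6% and 21.4%, beside 19.6% and 20.4%, median log2 -0.0036). The higher shares between labels and the lower share between lines under the label DMSO lie near those of all genes, and nothing is read from them. Under the label prexasertib 7 were higher and 1 lower in knockout cells (50% and 7.14%, beside 14.5% and 13.5%, median 0.18). SEPSECS, which completes the synthesis of selenocysteine on its tRNA, had 40.9, 39.1 and 40.5 CPM in parent libraries labelled DMSO and 21.7, 25.5 and 23.7 CPM in those labelled prexasertib. Knockout libraries had 28.7, 27.3 and 29.6 CPM and 26.4, 25.5 and 29.6 CPM and overlapped with each other, while the parent groups were far apart (-0.76 ± 0.07 log2 in parent, -0.07 ± 0.07 in knockout cells, interaction edgeR adjusted p = 6.75e-06). PSTK, the kinase that acts before SEPSECS in that pathway, was lower under the label prexasertib in parent cells (-0.61 ± 0.11 log2) and in knockout cells (-0.33 ± 0.11). XPOT was higher in both lines (0.29 ± 0.05 and 0.26 ± 0.05 log2).

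These lists were drawn up with earlier results of these data known, so their directions are described and not tested. The amino acid stress list holds ATF4, EIF2AK4 and genes known to respond to them, with 17 genes tested. In knockout against parent cells, 15 were lower and 1 higher under the label DMSO (88.2% and 5.88%, beside 20.4% and 19.6% of all genes, median log2 -0.63). Under the label prexasertib 12 were lower and 0 higher (70.6% lower, beside 13.5%, median -0.41). Between labels, 5 were higher and 9 lower in parent cells (29.4% and 52.9%, beside 18.2% and 18.2%), and 3 higher and 1 lower in knockout cells (17.6% and 5.88%, beside 6.11% and 6.83%). ATF4 mRNA itself was lower in knockout cells under both labels (-0.49 ± 0.06 and -0.38 ± 0.06 log2). EIF2AK4, the kinase that raises ATF4 protein, was slightly higher in knockout cells under the label DMSO (0.18). DDIT3 (CHOP), a transcription factor of the stress response, had 46.4, 46.6 and 48.3 CPM in the parent libraries labelled DMSO and 17.2, 17.6 and 16.7 CPM in those labelled prexasertib. Knockout libraries had 14.6, 14.4 and 14.8 and 16.2, 15.8 and 14.4 CPM, so that only the parent libraries labelled DMSO were high (-1.69 ± 0.06 log2 between lines under that label, edgeR adjusted p = 3.02e-17). DDIT3 overlaps MARS in the files, and reads of the shared bases cannot be told apart without a strand setting.

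SESN2, a sensor of leucine that restrains mTORC1, had 16.5, 15.9 and 16.2 CPM and 5.52, 6.87 and 6.06 CPM in parent libraries and 5.40, 5.91 and 5.98 CPM and 4.23, 4.28 and 3.87 CPM in knockout libraries, again with the parent libraries labelled DMSO standing high (-1.39 ± 0.09 log2 in parent, -0.48 ± 0.10 in knockout cells). SLC3A2, the heavy chain of amino acid transporters, had 328, 352 and 338 CPM and 202, 221 and 231 CPM in parent libraries and 169, 171 and 172 CPM and 167, 172 and 163 CPM in knockout libraries. It was high in parent libraries, most so in those labelled DMSO (-0.64 ± 0.05 log2 in parent, -0.03 ± 0.05 in knockout cells). MTHFD2, an enzyme of mitochondrial one-carbon metabolism, was higher under the label prexasertib in knockout cells (0.27 ± 0.06 log2) and not called in parent cells (-0.06 ± 0.06). DDIT4, an inhibitor of mTORC1, was higher in both lines (0.31 ± 0.07 and 0.38 ± 0.07 log2). CARS, SARS and TARS thus had the same order of groups as DDIT3 and SESN2 in parent cells, high under the label DMSO. VARS, WARS, IARS and EPRS, also described as ATF4 targets, had the opposite order, as did DDIT4. The other 6 of the 13 synthetases so described were not called between these labels. The amino acid stress list was itself mixed in this comparison, with 5 genes higher and 9 lower.

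Intronic reads, which come largely from unspliced RNA, gave a readout beside the exonic one. They could be tested for 35 of 36 members, as MARS2 has none. In knockout against parent cells under the label DMSO, 10 of 20 cytosolic members were called on intronic reads, beside 30.3% of the 19852 genes tested, with 9 lower (45.0%, beside 16.0% of genes) and 1, FARSA, higher, and of 15 mitochondrial members 1 was lower (WARS2) and 1 higher (LARS2). The 9 were the 7 genes with lower exonic reads, and IARS and LARS. SARS had 81.7, 78.1 and 81.7 intronic CPM in parent and 36.3, 39.7 and 35.2 intronic CPM in knockout libraries. The knockout libraries held less than each parent library by a wide margin (-1.12 ± 0.10 log2, edgeR adjusted p = 2.59e-08), beside -0.33 ± 0.05 for exonic reads. AARS had 77.7, 87.1 and 76.9 against 47.1, 52.9 and 49.0 intronic CPM (-0.70 ± 0.09 log2, edgeR adjusted p = 4.63e-06), YARS 87.3, 94.5 and 86.8 against 60.7, 57.9 and 61.1 (-0.58 ± 0.08 log2, edgeR adjusted p = 1.82e-05), and CARS 46.2, 56.4 and 55.9 against 35.2, 37.4 and 36.4 (-0.54 ± 0.09 log2, edgeR adjusted p = 1.15e-04). In all 3 the groups did not overlap, and 4910 of the 19852 genes were lower without overlap in this comparison. IARS had 258, 272 and 262 against 199, 197 and 192 intronic CPM, lower in knockout cells (-0.43 ± 0.06 log2, edgeR adjusted p = 1.54e-05), whereas its exonic reads were higher (0.20 ± 0.05 log2). Whether exonic and intronic changes differ was not tested.

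Some introns of members overlap other genes. Counting only intronic reads outside other genes, an alternative added after the data were seen, MARS was at -0.39 ± 0.09 log2 in place of -0.82 ± 0.08. MARS overlaps DDIT3 and ARHGAP9 in the files, and 26.3% of its intronic reads lie outside other genes. The same 9 cytosolic genes were lower in that fit, and KARS (0.31 ± 0.10 log2) replaced FARSA as the higher one. Under the label prexasertib, AARS, CARS, IARS, SARS and YARS had lower intronic reads in knockout cells (log2 -0.55 for SARS to -0.19 for IARS) and DARS higher (0.21), where 9.16% of genes were called lower and 9.62% higher. NARS2 was the mitochondrial gene called, lower (-0.45). MARS was lower too when only reads outside other genes were counted (-0.35). SARS was therefore lower in intronic reads under this label, although its exonic reads were not called (-0.06). Between labels in parent cells, intronic reads of 6 cytosolic members were lower, AARS, CARS, GARS, MARS, SARS and TARS, and 3 higher, DARS, FARSA and FARSB, where 30.8% of genes were called and 15.6% were lower. Of the mitochondrial members CARS2, EARS2, FARS2 and LARS2 were higher and TARS2 lower (-0.49). FARSA was not called with reads outside other genes alone (0.27). In knockout cells 1 was lower (MARS) and 4 higher (DARS, FARSB, LARS and TARS), where 6.15% and 5.83% of genes were called. The interaction on intronic reads was negative for SARS (-0.57 ± 0.14 log2, edgeR adjusted p = 0.0145) and TARS (-0.49 ± 0.10 log2, edgeR adjusted p = 0.00346), 2 of the genes with a negative interaction on exonic reads, and positive for LARS2 (0.42), while 5.82% of genes were negative and 4.02% positive. MARS was also negative (-0.72), but not with reads outside other genes (-0.04), where FARS2 was positive (0.46) beside its negative exonic interaction. FARS2 had higher intronic reads between labels in parent cells (0.42 ± 0.09 log2) and lower exonic reads (-0.33 ± 0.07 log2).

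Several intronic values leaned on replicate 1 of the parent libraries labelled prexasertib, the library with the highest intronic share. FARS2 had 116, 102 and 102 intronic CPM in parent libraries labelled DMSO and 172, 125 and 131 in those labelled prexasertib, and LARS2 had 92.1, 79.7 and 86.7 against 133, 97.7 and 105. In both genes that replicate was the highest of the 12 libraries, and the groups did not overlap. Of all 19852 genes, 3585 were higher without overlap in that comparison. With each library left out of the intronic fit in turn, an alternative added after the data were seen, the difference between labels in parent cells without that replicate was 0.26 for FARS2 in place of 0.42 and 0.24 for LARS2 in place of 0.38, both still called. It was 0.19 for CARS2 in place of 0.30 and 0.17 for FARSB in place of 0.26, also still called, and TARS2 was no longer called (-0.34). The LARS2 interaction was 0.27 in place of 0.42 without it, still called, and that of FARS2, not called with all intronic reads (0.36), was 0.20. NARS2 in knockout against parent cells under the label prexasertib was -0.29 in place of -0.45, still called. Without that replicate 5 mitochondrial members were higher in knockout cells under the label DMSO, in place of 1. In knockout cells 2 cytosolic members were then lower between labels, with 1 mitochondrial member higher and 1 lower, and 2 mitochondrial members had a positive interaction. Shares of all genes called were not counted in the intronic fits without 1 library, so nothing is read from changed member counts there.

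The 9 lower cytosolic genes in knockout cells under the label DMSO were called without any 1 library. Other intronic calls ended when a library was left out. Between lines under the label DMSO these were FARSA, without DMSO parent 1 or 2 or DMSO knockout 1 or 3 (0.24 to 0.27), and WARS2, without DMSO knockout 2 (-0.34). Without DMSO parent 1, 2 mitochondrial members were higher. In the comparison under the label prexasertib the DARS call ended without DMSO parent 3, prexasertib parent 2 or 3 or prexasertib knockout 1, 2 or 3 (0.18 to 0.23), and that of IARS without prexasertib parent 2, DMSO knockout 1 or 2 or prexasertib knockout 1, 2 or 3 (-0.21 to -0.17). Without prexasertib parent 2, 3 mitochondrial members were lower. Between labels in parent cells the CARS call ended without DMSO parent 2 or 3 or prexasertib parent 2 or 3 (-0.24 to -0.20), and that of GARS without DMSO parent 1 or 3 (-0.19 and -0.20). DARS and FARSB were not called without DMSO parent 2 (0.19 and 0.24), FARSA without DMSO parent 1 or 2 or prexasertib parent 3 (0.20 to 0.30), nor TARS2 without DMSO parent 3 (-0.41). In knockout cells the FARSB and TARS calls ended without DMSO parent 2 or 3 or any 1 knockout library (0.21 to 0.26 and 0.22 to 0.25), and that of MARS without DMSO knockout 1, 2 or 3 or prexasertib knockout 1 or 3 (-0.28 to -0.20), while DARS and LARS were called without any 1 library. In the interaction the SARS call ended without DMSO parent 3 (-0.53) or prexasertib knockout 3 (-0.49), and that of LARS2 without DMSO parent 2 or 3 or any 1 knockout library (0.38 to 0.45). The TARS interaction was called without any 1 library. Mitochondrial members with a positive interaction numbered 2 without DMSO parent 1, 3 without prexasertib parent 2 and 5 without prexasertib parent 3.

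**Figure D5:**
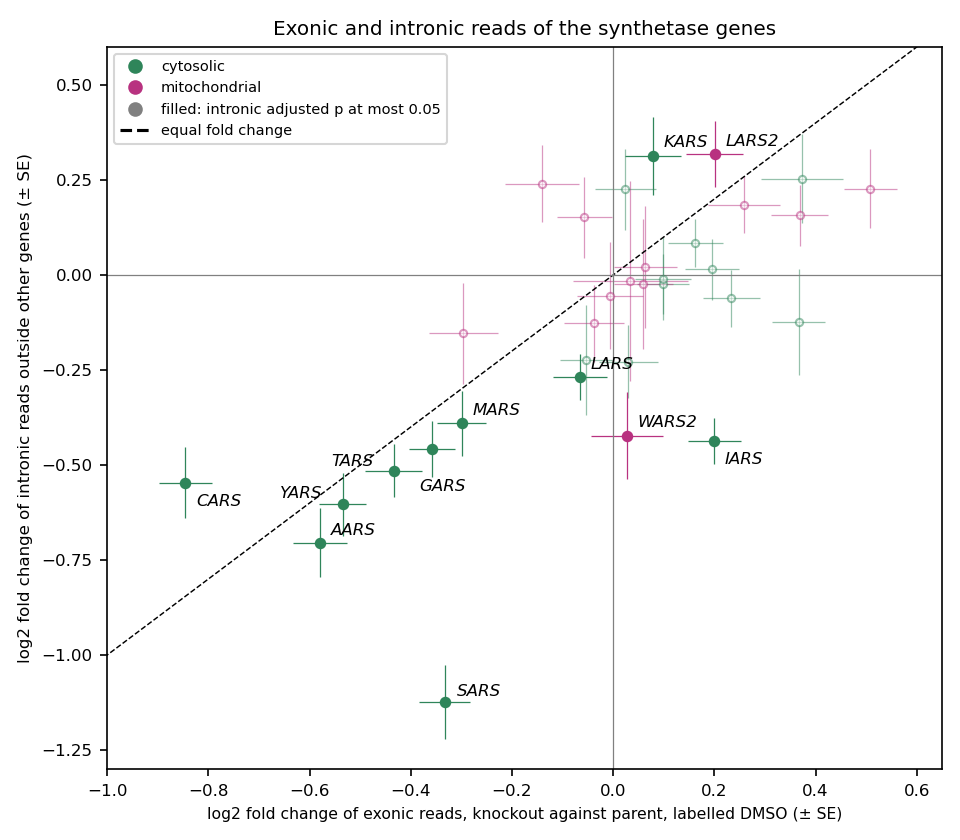
Log2 fold change of knockout against parent libraries labelled DMSO for exonic reads (x) and intronic reads outside other genes (y), with SE bars. Named, filled points have an intronic edgeR adjusted p of at most 0.05. AARS, YARS, TARS, GARS and MARS lie near the line of equal change, SARS lies far below it at -1.12 on the intronic axis, and IARS has exonic reads above 0 and intronic reads below 0.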

How the data were processed

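RNA-seq of 12 libraries (4 groups of 3) was analysed from 1 deposited table per library. Per the file headers, the authors' tables hold exonic and intronic read counts and TPM per gene, with hg19 positions. Per the submitters' processing notes, the tools were STAR 2.5.4a, Picard 2.9.2, Trimmomatic 0.39 and Trim Galore 0.6.2, with hg19 as the build. The counter, annotation and strand setting are not given in the sources used here. Per the labels' protocols, all libraries were pooled in a single paired-end run. A gene missing from a table was counted as 0, and starts and ends in the tables were raised by 1. Exonic counts of all genes were fitted with edgeR 4.0.16 (R 4.3.3) as 1 model of 4 group means with TMM scaling, filterByExpr at a minimum count of 10, robust quasi-likelihood tests and Benjamini-Hochberg adjustment over 23045 genes, at an adjusted p of at most 0.05. Intronic counts were fitted in the same way over 19852 genes. The 5 contrasts were tested in this way. The steps were run on simulated counts with independent libraries and few changed genes. That setting holds no library that stands apart and no broad change, so it does not bear on either. Totals of reads per library bound counting error only.

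The members and lists were chosen with earlier results of these data known. Values by library are given for members called with an absolute log2 fold change of at least 0.5, for members called in the interaction, and for the 4 cytosolic and 4 mitochondrial members of highest mean TPM. Of the accessory and amino acid stress lists, the 3 genes of smallest p in each treatment contrast are named, and ATF4 and EIF2AK4 were added after their values were seen. Also given beside them are EARS2 in knockout cells and the intronic levels of SARS, AARS, YARS, CARS and IARS, chosen after their values were seen. Alternatives were RLE size factors, library size alone, no filter or a mean CPM of at least 1, exonic reads outside other genes, all reads (exonic and intronic), limma 3.58.1 on log2(deposited TPM + 1), DESeq2 1.42.0, a fit of the 2 groups alone, a replicate block and each library left out. Counting intronic reads only outside other genes, and leaving each library out of the intronic fit, were added after the data were seen. Promoters came from RefSeq GRCh38.p14. A list gene, a marker and a promoter sequence are not reported here.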

Additional observations from a re-analysis of the deposited data

Results flagged for a closer look

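Each value below is the log2 difference between labels (prexasertib against DMSO) in parent cells minus the same difference in knockout cells, listed because edgeR's interaction test gave an adjusted p of at most 0.05. The sign turns if the library names in the files hold instead of the record labels. Among the cytosolic synthetases the value was 0.51 for VARS and 0.43 for WARS, and it was -0.31 for CARS, -0.27 for SARS, -0.23 for TARS and -0.22 for AARS. Among the mitochondrial synthetases it was 0.39 for IARS2, 0.32 for CARS2 and -0.44 for FARS2. Among the other named genes it was -0.69 for SEPSECS, -1.54 for DDIT3, -0.34 for MTHFD2, -0.92 for SESN2 and -0.61 for SLC3A2. Groups of 3 libraries are too small for a test of single outlying libraries.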

How the results depend on the processing

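Counts below give members called cytosolic higher, cytosolic lower, mitochondrial higher and mitochondrial lower, or the part of these 4 that moved by more than 1.5 times. For knockout against parent under the label DMSO (6, 7, 4 and 1), TPM gave 13, 4, 13 and 0, library size alone 8 mitochondrial higher, all reads 0 mitochondrial lower, and a mean CPM of at least 1 gave 2. For knockout against parent under the label prexasertib (2, 7, 5 and 2), TPM gave 7, 3, 11 and 0, all reads 4 cytosolic lower, 1 mitochondrial higher and 0 lower, the fit of the 2 groups alone 4 cytosolic and 1 mitochondrial lower, library size alone 4 cytosolic higher and 1 mitochondrial lower, and no filter 1 mitochondrial lower. For the labels in parent cells (4, 3, 4 and 4), TPM gave 12 cytosolic higher, 7 mitochondrial higher and 1 lower, library size alone 10 cytosolic higher, and all reads 5 cytosolic and 2 mitochondrial lower. For the labels in knockout cells (2, 1, 1 and 0), the fit of the 2 groups alone gave 6, 2, 2 and 2. Calls over all genes were also more frequent in that fit, 2402 higher and 2476 lower of 21529. A mean CPM of at least 1, and exonic reads outside other genes, each gave 4 cytosolic higher, 2 lower and 1 mitochondrial lower. Genes called higher and lower numbered 1631 and 1599 of 15815 in the former, and 1346 and 1307 of 15906 in the latter. No filter gave 0 cytosolic higher, 0 lower and 1 mitochondrial lower, library size alone 2 cytosolic and 1 mitochondrial lower, DESeq2 2 cytosolic lower, and TPM and all reads 1 cytosolic higher each. Genes called lower numbered 1658 of 40466 with no filter, 1527 of 23045 with library size alone and 1618 of 23045 with DESeq2. For the interaction (2 and 4, then 2 and 1), TPM gave 5, 0 and 4 mitochondrial positive, library size alone 4 and 2, and all reads 0 mitochondrial negative. The intronic interaction gave 2 mitochondrial positive with reads outside other genes, in place of 1, and those reads turned KARS to 0.31 between lines under the label DMSO. The cause of these moves was not tested.

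Leaving out single libraries gave, in the same order of counts, 4 to 6, 7 to 8, 4 to 5 and 1 to 2 for the lines under the label DMSO, and 1 to 3, 4 to 9, 2 to 8 and 0 to 2 under the label prexasertib. It gave 3 to 7, 2 to 5, 3 to 4 and 2 to 5 for the labels in parent cells, 0 to 6, 0 to 2, 1 to 2 and 0 to 2 in knockout cells, and 2 to 4, 2 to 6, 2 to 3 and 1 to 2 for the interaction. On intronic reads it gave 0 to 1, 9 to 10, 1 to 5 and 0 to 1, then 0 to 1, 4 to 6, 0 and 1 to 3 between lines, 0 to 4, 4 to 6, 4 to 6 and 0 to 1 between labels in parent cells, 2 to 5, 0 to 2, 0 to 1 and 0 to 1 in knockout cells, and 0, 2 to 4, 0 to 5 and 0 for the interaction. Over all members and contrasts, 3419 alternative values kept their sign and side of the threshold, and 172, called neither before nor after, turned sign. Another 162 passed it anew, 148 no longer passed it and 13 changed sign with a call in either fit. On TPM, QARS turned to 0.10 between labels in parent cells, and between lines under the label DMSO LARS turned to 0.21, QARS to 0.22, EARS2 to 0.20, NARS2 to 0.22 and TARS2 to 0.24. With all reads, FARS2 turned to 0.29 and YARS2 to 0.00895 between labels in parent cells, YARS2 to 0.016 between lines under the label DMSO, FARS2 to -0.11, RARS2 to -0.0016 and YARS2 to 0.019 under the label prexasertib, and FARS2 to 0.22 in the interaction. YARS2 overlaps DNM1L, and 6.45% of its intronic reads lie outside other genes.

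Samples with the same replicate number deviated together weakly at most (r = 0.12, 0.02 and 0.05 between labels in parent cells, -0.02, 0.02 and -0.04 in knockout cells). Between lines r was 0.06, 0.01 and 0.03 under the label prexasertib, and 0.004, -0.01 and -0.01 under the label DMSO. Different numbers gave -0.09 to 0.04 between labels in parent cells. In each group replicate 3 had the fewest exonic reads. Whether the numbers mark a shared step was not tested. With the replicate block, the labels in knockout cells gave 2 cytosolic and 1 mitochondrial members lower, and the other counts moved by at most 1.5 times. With 3 libraries a group, small shifts near the threshold can pass or miss it when any library is left out, as the ranges above show.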
